A study of Rattus norvegicus with 23 samples.

Results

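The histidine tRNA reads of rat sperm were the rows of the deposited tRNA table named tRNA-His-GTG, which numbered 10 of 273 rows. The name gives the amino acid, the anticodon as DNA letters, a sequence group and a gene copy. All 10 rows had sequence group 1 and differed only in the copy number, from 1-1 to 1-10, so by this naming scheme they are copies with the same mature sequence. Every row was above 0 in every library and all 10 entered the tests. A further row, tRX-His-NNN-1-1, a low-confidence histidine-like gene model, was kept apart. The GRCr8 RefSeq annotation, which is of another build than the reads, also lists 10 nuclear genes named Trnah-gug. They are spread over 4 chromosomes, with 5 on 1 chromosome and 3 on another, and each is 72 bases long. The annotation names could not be paired with single rows.

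The libraries hold small RNA of sperm taken from the cauda epididymis of male Long-Evans rats, and each is labelled as 1 rat. The groups were filtered air (n = 7), 0.4 ppm ozone (n = 8) and 0.8 ppm ozone (n = 8), and the ozone chambers averaged 0.401 and 0.798 ppm. Ozone was given for 4 h at a time, on 3 occasions in week 1 and 2 occasions in week 2, and control rats breathed filtered air. The design names 8 rats per group, and 7 air libraries were analysed here.

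Transfer RNA carries an amino acid to the ribosome, and the histidine tRNA reads the histidine codons with its GUG anticodon. It differs from other tRNAs in an extra guanosine that the enzyme Thg1l adds to its 5′ end. Like the tRNAs for aspartate, asparagine and tyrosine, it can carry the modified base queuosine at the first anticodon position. In mature sperm, small RNA libraries hold many tRNA fragments, many of them 5′ pieces cut near the anticodon, and those of glycine and glutamate tRNAs are the best known. The deposited rows do not say which part of the tRNA a read covers.

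The values are reads scaled per library by the authors. In each library every value under 150 was a whole multiple of 1 step within 0.1 of a read, which was taken as 1 read. With 45 to 109 values checked per library this step is an estimate, not a deposited count, and the reads, counting errors and Wilson intervals given here depend on it. Recovered tRNA reads ranged from 164342 to 481504 per library. The germ-cell miRNAs miR-34b, miR-34c and miR-449a held 23.6% to 51.3% of the miRNA table. All 5 epithelial markers were measured and held 0.688% to 3.23%, the 4 leukocyte markers 1.67% to 6.26% (miR-223 was at 0 in 2 libraries), 3 of 4 muscle and stroma markers 1.54% to 11.3%, and 2 of 3 erythroid markers 0.0107% to 0.206%. Of 9 mRNA markers of sperm, epididymis and blood cells, 1 had a row, the epididymal lipocalin Lcn5, so the label sperm could not be checked against sperm mRNAs. The sample sheet numbers in the library names repeat, and along the columns of the miRNA table they form 2 sets with no repeat, of 11 and 12 libraries. The first set holds 2 of the 7 air rats, 4 of the 8 at 0.4 ppm and 5 of the 8 at 0.8 ppm. What the sets are is not stated. In such bulk samples fewer cells of a type and less RNA per cell cannot be told apart.

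Histidine tRNA was a small part of the sperm tRNA reads. The 10 rows together held 0.138% ± 0.0435 of the tRNA table (SD, n = 23). Their summed normalised value was 470.4 ± 135.7 (SD, n = 23), which placed histidine 33rd of 55 when the rows of each anticodon were summed. This order is by reads and is not corrected for tRNA length. The neighbours were tRNA-Arg-TCG at 607.4 and the initiator tRNA-iMet-CAT at 431.8, on means over 23 libraries. Between 273 and 808 recovered reads per library lay behind the histidine sum, if no read was counted at more than 1 row. Of the other anticodons that can carry queuosine, tRNA-Asp-GTC held 1.93% ± 0.722 of the table (SD, n = 23) in 14 rows, tRNA-Asn-GTT 0.331% ± 0.150 in 13 rows and tRNA-Tyr-GTA 0.110% ± 0.0536 in 3 rows.

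The histidine value varied more between ozone rats than between air rats. In air the sum ran from 326.2 to 521.3 with a median of 401.6 and a mean of 412.0 ± 68.9 (SD, n = 7). At 0.4 ppm it ran from 358.5 to 768.6 with a median of 481.5 and a mean of 508.7 ± 138.7 (SD, n = 8). At 0.8 ppm it ran from 276.7 to 803.4 with a median of 460.3 and a mean of 483.2 ± 171.3 (SD, n = 8). The groups overlapped: 3 of 8 libraries at 0.4 ppm and 2 of 8 at 0.8 ppm lay above the highest air library, and 2 at 0.8 ppm lay below the lowest. As a percent of the mean, the SD of the histidine sum was 16.7% in air, 27.3% at 0.4 ppm and 35.4% at 0.8 ppm. The wider spread was not particular to histidine. In the same order this percent was 20.4%, 33.5% and 42.1% for tRNA-Gly-GCC, and 13.2%, 24.2% and 26.8% for the tRNA reads. It was lower than in air for tRNA-Leu-CAA and tRNA-Arg-TCG at 0.8 ppm and for tRNA-Lys-CTT at 0.4 ppm. The difference in spread was not tested.

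**Figure D1:**
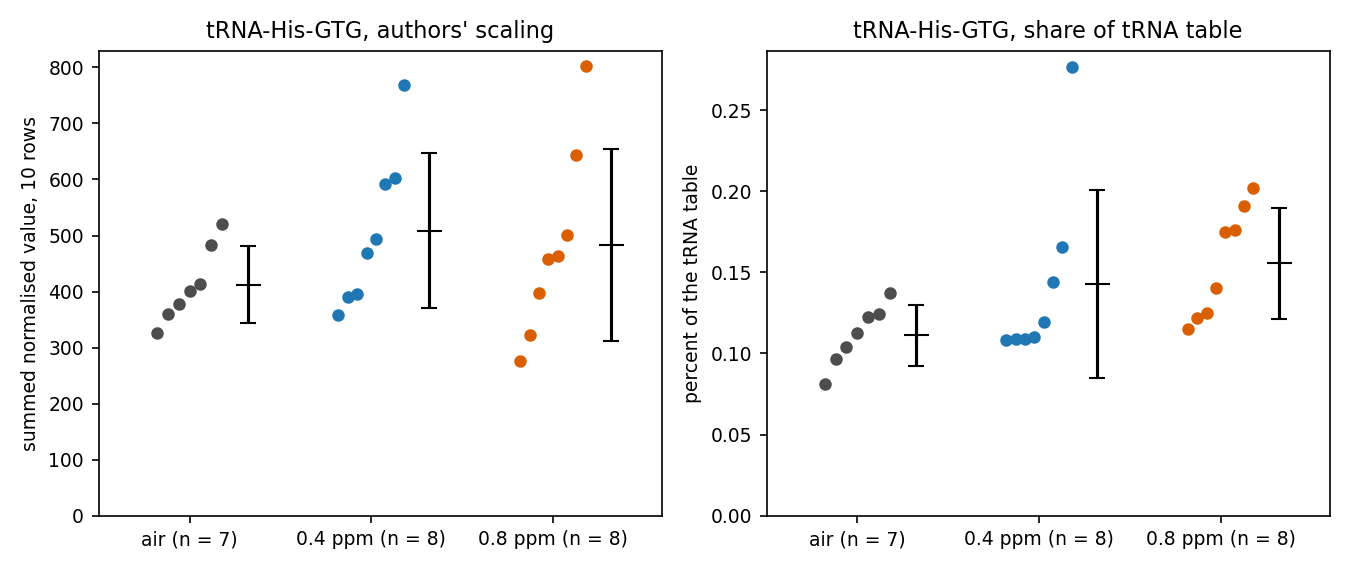
Summed tRNA-His-GTG value per library in the authors' scaling (left) and as a percent of the tRNA table (right), for air, 0.4 ppm and 0.8 ppm ozone. Each point is 1 rat, and the bar beside each group is the mean with its SD. On the left the ozone groups spread from 276.7 to 803.4 around the air range of 326.2 to 521.3, and on the right the 0.8 ppm points lie between 0.115% and 0.202% against 0.0813% to 0.137% in air.

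The comparison with air asked whether ozone alters this RNA in sperm, and no difference passed the threshold. limma was fitted to log2(value + 1), first over the 55 anticodon sums and then over all 273 rows. At 0.4 ppm the histidine sum had a log2 fold change of 0.28 ± 0.20 (SE), with a 95% interval of -0.14 to 0.69 (limma adjusted p = 0.648). As a fold this is 1.21, with an interval of 0.909 to 1.61. At 0.8 ppm it had a log2 fold change of 0.17 ± 0.20 (SE), with an interval of -0.24 to 0.58 (limma adjusted p = 0.895). The fold was 1.13, with an interval of 0.845 to 1.499. Without 0.8 ppm replicate 5 the log2 fold change at 0.8 ppm was 0.055, without 0.8 ppm replicate 7 it was 0.10, and without 0.8 ppm replicate 4 it was 0.27. At 0.8 ppm against 0.4 ppm it was -0.11 ± 0.20, with an interval of -0.51 to 0.29 (limma adjusted p = 0.967). Across the doses the slope was 0.20 ± 0.25 per ppm in log2 (SE, limma adjusted p = 0.898). The order of the means was thus 0.4 ppm, 0.8 ppm and air, and the 95% intervals for the pairs of groups all included 0. Against air the intervals ran from 0.909-fold to 1.61-fold at 0.4 ppm and from 0.845-fold to 1.499-fold at 0.8 ppm. Changes within these bounds were not excluded with these rats.

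None of the 10 rows passed the adjusted threshold in any contrast, where limma called 0.0% of the 273 rows in each. By limma's unadjusted p, 0 of the 10 rows were under 0.05 in each contrast, against 5.86% of all rows at 0.4 ppm, 1.83% at 0.8 ppm, 2.2% for 0.8 against 0.4 ppm and 1.83% for the trend. The anticodon sums likewise had 0.0% called after adjustment, and 3.64%, 0.0%, 1.82% and 0.0% under 0.05 before it in the same order. The exact Wilcoxon rank-sum test also called no histidine row after adjustment. At 0.4 ppm all 10 rows had positive log2 fold changes, from 0.12 to 0.43 with a median of 0.30, where 48.0% of all rows were positive and their median was -0.0070. At 0.8 ppm all 10 were again positive, from 0.051 to 0.39 with a median of 0.16, where 47.6% of all rows were positive and their median was -0.016. For 0.8 against 0.4 ppm 2 of 10 were positive, from -0.30 to 0.031, where 48.4% of all rows were. These contrasts with air share the air rats, and the rows share a mature sequence, so the 10 signs are not separate measurements. With the germ-cell miRNA share as a covariate, 5 of 10 rows were positive at 0.4 ppm with a median of -0.0050, below the table median of 0.011, and 8 of 10 at 0.8 ppm with a median of 0.13. Without the 2 libraries with the fewest tRNA reads, 10 of 10 rows were positive at 0.4 ppm with a median of 0.16, and 8 of 10 at 0.8 ppm with a median of 0.038.

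The largest fitted difference was that of tRNA-His-GTG-1-3. In air it ran from 19.2 to 44.2 with a median of 34.6, at 0.4 ppm from 22.3 to 69.4 with a median of 46.8, and at 0.8 ppm from 27.1 to 70.2 with a median of 38.1. Its groups overlapped, and its log2 fold changes were 0.43 ± 0.26 (SE) at 0.4 ppm and 0.39 ± 0.26 at 0.8 ppm (limma adjusted p = 0.779 and 0.935). The row with the highest value in a single library was tRNA-His-GTG-1-2, at 118.6 in 0.8 ppm replicate 5. It ran from 36.6 to 73.1 in air (median 52.5), from 37.3 to 90.4 at 0.4 ppm (median 59.3) and from 44.1 to 118.6 at 0.8 ppm (median 57.3). These ranges overlapped as well, and its log2 fold changes were 0.15 ± 0.22 (SE) at 0.4 ppm and 0.18 ± 0.22 at 0.8 ppm. The low-confidence row tRX-His-NNN-1-1 had a mean of 12.5 ± 4.33 (SD) in the 7 air rats, 12.1 ± 4.18 in the 8 rats at 0.4 ppm and 13.4 ± 5.24 in the 8 at 0.8 ppm. Its log2 fold changes were -0.063 ± 0.27 (SE) and 0.076 ± 0.27.

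**Figure D2:**
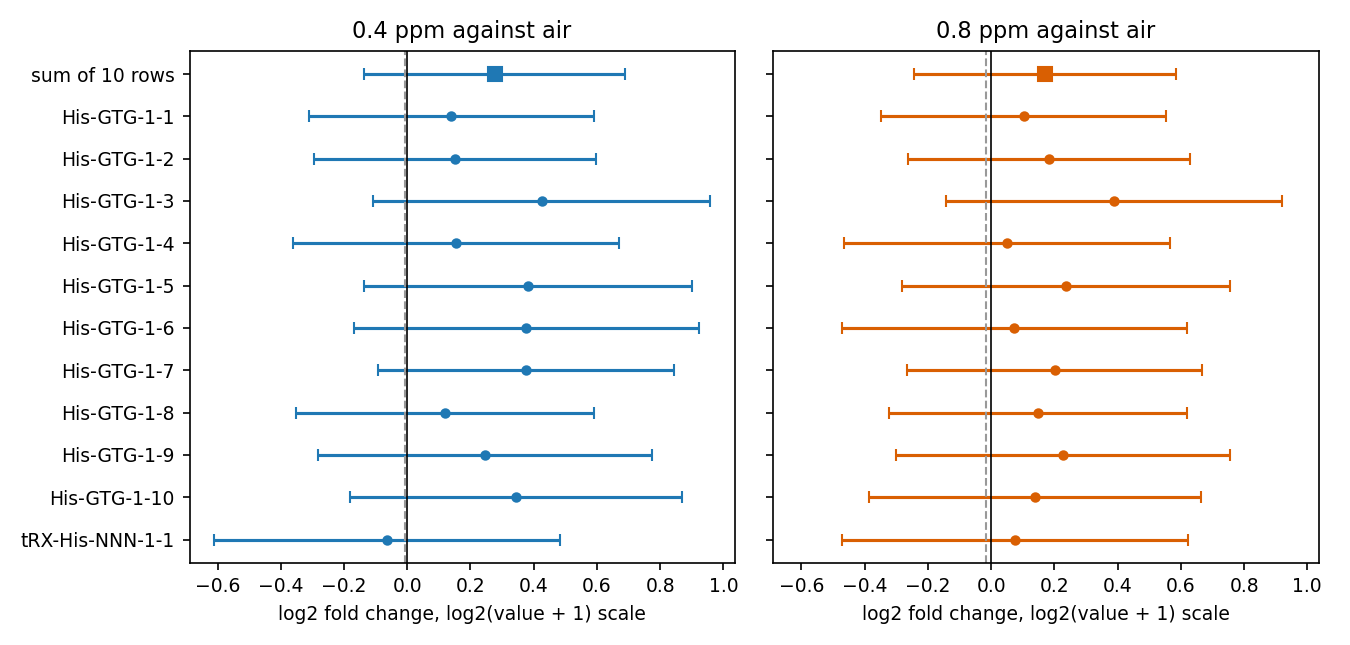
Log2 fold changes against air of the histidine sum (squares), the 10 rows and the tRX-His row (circles), on the log2(value + 1) scale, at 0.4 ppm (left) and 0.8 ppm (right). Bars are 95% intervals from limma and the dashed line is the median of all 273 rows. Each interval crosses 0, including those of row 1-3, which has the highest points at 0.43 and 0.39.

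Taken as a share of the table, which does not use the authors' factor, histidine stood at 0.111% ± 0.0188 (SD) in the 7 air rats, 0.143% ± 0.0581 in the 8 rats at 0.4 ppm and 0.156% ± 0.0342 in the 8 at 0.8 ppm. All 8 libraries at 0.8 ppm lay above the air median of 0.112%, and 5 lay above the highest air library at 0.137%. The mean share was also higher at 0.8 ppm than in air for the other anticodons that can carry queuosine. It was 2.37% against 1.71% for tRNA-Asp-GTC, 0.3998% against 0.3126% for tRNA-Asn-GTT and 0.1339% against 0.1004% for tRNA-Tyr-GTA. It was lower for tRNA-Gly-GCC, at 29.9% against 32.6%, and for tRNA-Leu-CAA, at 16.95% against 18.44%. The difference in share between histidine and these anticodons was not tested. The lowest histidine share of all was 0.0813% in air replicate 3 (339 reads, 95% Wilson interval 0.0731% to 0.0904%). The highest was 0.277% in 0.4 ppm replicate 6 (631 reads, 0.256% to 0.299%). Without that library the 0.4 ppm mean was 0.124%. The histidine share also differed between the library sets, at 0.160% ± 0.0464 (SD, n = 11) in the first and 0.117% ± 0.0292 (n = 12) in the second. Of the 8 ozone libraries above the highest air library, 7 were in the first. Within the first set the mean share was 0.130% in 2 air rats, 0.174% in 4 rats at 0.4 ppm and 0.161% in 5 at 0.8 ppm. Within the second it was 0.104% in 5 air rats, 0.112% in 4 rats at 0.4 ppm and 0.146% in 3 at 0.8 ppm, where replicate 5 at 0.202% stood above the other two. The intervals cover counting error within a library only. They used no molecular identifiers, and they take each read as counted at 1 row only.

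Scaling each library to the same table total before the fit gave the histidine sum a log2 fold change of 0.47 ± 0.23 (SE) at 0.8 ppm, with an interval of 0.0040 to 0.94. Its unadjusted limma p was 0.0482, where 3.64% of the anticodon sums were under 0.05, and it did not pass over the 55 anticodons (limma adjusted p = 0.654). With the library set as a further covariate it was 0.35 (limma unadjusted p = 0.111, adjusted p = 0.845). For the slope across the doses, equal totals gave 0.59 ± 0.28 per ppm in log2 (SE). Its limma unadjusted p was 0.0467 and its adjusted p 0.622, where 83.9% of all rows had a positive slope. With the library set added the slope was 0.43 (limma unadjusted p = 0.114, adjusted p = 0.818). Scaling to equal totals moved the median of all 273 rows by 0.29 at 0.8 ppm, so that 84.6% of them were positive. All 10 histidine rows were positive too, and 1 had an unadjusted limma p under 0.05, against 3.66% of all rows. Relative to the median row, the histidine rows' median was 0.18 higher at 0.8 ppm and 0.30 higher at 0.4 ppm under both of these scalings. Under quantile normalization it was 0.058 and 0.23 higher, and 8 of 10 rows were positive at 0.8 ppm. The most abundant anticodon, tRNA-Gly-GCC, had -0.44 ± 0.24 at 0.8 ppm in the authors' scaling and -0.14 ± 0.11 with equal totals.

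Other anticodons gave fold changes on either side of zero in the same fit. At 0.4 ppm the log2 fold change was -0.10 ± 0.23 (SE) for tRNA-Asp-GTC, -0.28 ± 0.24 for tRNA-Asn-GTT and -0.22 ± 0.26 for tRNA-Tyr-GTA. At 0.8 ppm the same anticodons had 0.11 ± 0.23, -0.057 ± 0.24 and 0.00073 ± 0.26. Among anticodons known for sperm fragments, those at 0.4 and 0.8 ppm were 0.19 ± 0.24 and -0.16 ± 0.24 for tRNA-Glu-CTC and 0.29 ± 0.24 and -0.15 ± 0.24 for tRNA-Val-CAC. They were 0.15 ± 0.20 and 0.056 ± 0.20 for tRNA-Lys-CTT, and -0.36 ± 0.22 and -0.43 ± 0.22 for tRNA-Leu-CAA. None passed the threshold, and the difference between histidine and these anticodons was not tested. Histidine ranked 10th highest of 55 at 0.4 ppm and 7th at 0.8 ppm.

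The copies did not hold equal parts of the histidine value, although their names give them 1 mature sequence. An equal split would give each row 10%. Rows 1-8, 1-1 and 1-2 held 13.4% ± 2.57, 13.3% ± 2.30 and 13.0% ± 2.17 of the sum (SD, n = 23). The other 7 rows held means of 8.40% to 8.93%, with SDs of 1.30 to 1.75. In normalised value the 3 higher rows averaged 62.2 ± 18.8, 61.5 ± 15.5 and 60.2 ± 17.5, and the other 7 rows 39.96 to 42.95. Each of the 3 exceeded each of the 7 in 16 of 23 libraries, and the mean of the 3 exceeded that of the 7 in 22. The 3 rows were singled out after their values were seen, so no test is given. Reads per library ranged from 26 to 109 in the 3 rows and from 17 to 85 in the 7. Values under 150 were whole multiples of the step taken as 1 read. That step was found from these same values, so it cannot show whether reads were split among copies. For the placing of reads that match several copies the rule used was not given in the sources used here.

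How much these 3 rows held varied between rats. In air it ran from 37.4% to 44.9% of the histidine sum with a median of 42.1%. At 0.4 ppm it ran from 29.3% to 52.7% with a median of 35.9%, and at 0.8 ppm from 35.5% to 46.1% with a median of 40.5%. At 0.4 ppm 5 of 8 libraries lay below the lowest air library and 1 above the highest, so the 0.4 ppm rats covered a wider span on both sides. At 0.4 ppm the library sets did not overlap, with 29.3% to 34.9% in the 4 rats of the first set and 37.0% to 52.7% in the 4 of the second. In air the sets overlapped, at 37.4% to 43.2% (n = 2) and 38.1% to 44.9% (n = 5). They also overlapped at 0.8 ppm, at 35.5% to 43.9% (n = 5) and 40.4% to 46.1% (n = 3). Over all groups the 3 rows held 36.8% ± 4.74 (SD, n = 11) in the first set and 42.5% ± 4.25 (n = 12) in the second, and the part of the sets in this was not tested. The extremes were 0.4 ppm replicate 3, where rows 1-1, 1-2 and 1-8 had 27, 35 and 26 reads, and 0.4 ppm replicate 8, where they had 78, 69 and 93. In 0.4 ppm replicate 6, the second highest in histidine value, they held 30.1%, close to an equal split. The mean value of the 3 rows was 56.3 ± 9.47 (SD) in the 7 air rats, 62.8 ± 13.1 in the 8 rats at 0.4 ppm and 64.3 ± 21.2 in the 8 at 0.8 ppm. That of the 7 rows was 34.7 ± 6.39, 45.8 ± 16.5 and 41.5 ± 15.7.

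**Figure D3:**
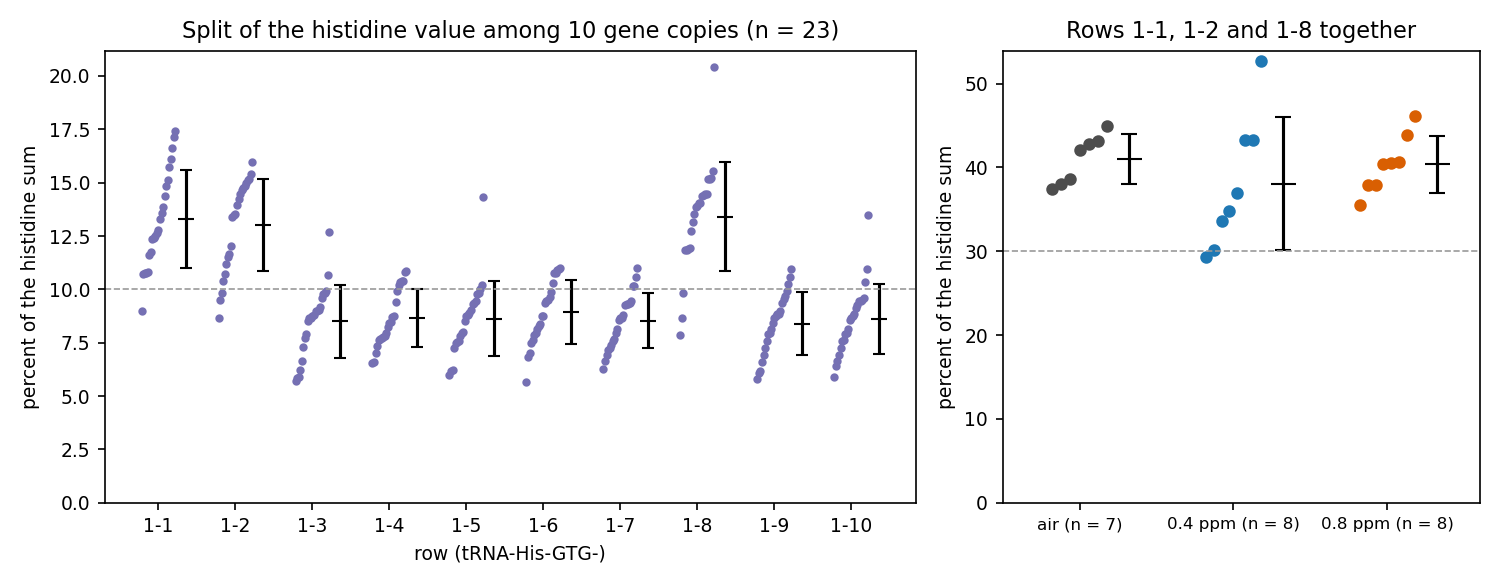
Percent of the histidine sum held by each of the 10 copies in 23 libraries (left), and by rows 1-1, 1-2 and 1-8 together in each group (right). Points are single rats, bars are the mean with its SD, and dashed lines mark an equal split of 10% a row or 30% for 3 rows. The 3 rows stand at 13.0% to 13.4% and the others at 8.40% to 8.93%, and the 0.4 ppm points on the right span 29.3% to 52.7%.

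Across libraries the rows rose and fell with each other. The Pearson correlation of log2(value + 1) over the 23 libraries had a median of 0.69 over the 45 pairs of rows, from 0.43 to 0.88. Its median was 0.78 among the 7 lower rows, 0.68 among the 3 higher rows and 0.56 between the sets. These correlations share library, depth and mature sequence. Counting error alone would give a single row a coefficient of variation of 13.2% to 16.8%, and the observed coefficients were 25.1% to 43.3%. For the sum they were 4.77% by counting and 28.9% observed. The counting figure for the sum takes each read as counted at 1 row only. The rule for reads that match several copies was not given, and the part of counting error in this spread was not tested. The median observed coefficient over the 55 anticodon sums was 31.3%, and 23 of them had a lower one than histidine.

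The histidine value was higher in libraries with fewer tRNA reads and with less germ-cell miRNA. The highest values were 803.4 in 0.8 ppm replicate 5 and 768.6 in 0.4 ppm replicate 6, which were the shallowest libraries at 164342 and 227916 tRNA reads. The lowest value, 276.7, was in 0.8 ppm replicate 4, the deepest at 481504 reads. Over the 23 libraries the log2 sum and log2 reads had Pearson r = -0.71 and Spearman rho = -0.58, and r = -0.48 without the 2 libraries farthest from the median depth. With each group's mean removed r was -0.69, and it was -0.52 in air, -0.56 at 0.4 ppm and -0.79 at 0.8 ppm. Of the 55 anticodon sums none had a lower r with depth, and the median over them was 0.047. Within the library sets r was -0.83 (n = 11) and -0.68 (n = 12). As a share of the table histidine had r = -0.37 and rho = -0.079 with depth. The reads set both the scaling factor and the depth, so these values share a term.

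With the share of the germ-cell miRNAs, which comes from a separately scaled table of the same libraries, the log2 histidine sum had Pearson r = -0.75 and Spearman rho = -0.71 (n = 23). It was -0.76 without the 2 libraries farthest from the median and -0.74 with group means removed, and -0.77 and -0.82 within the library sets. Lower r values were found for 2 of the 55 anticodon sums, and their median was -0.070. The 5 libraries with the lowest germ-cell share, from 23.6% to 33.2%, ranked 1, 2, 3, 4 and 6 in histidine value. With the epithelial miRNAs r was 0.63 and rho 0.43, the highest r of the 55 sums, and 0.4 ppm replicate 6 and 0.8 ppm replicate 5 were also the highest in epithelial share at 3.23% and 2.95%. Without the 2 libraries farthest from the median the epithelial r was 0.35, and within the library sets it was 0.51 and 0.77. For the muscle and stroma, leukocyte and erythroid lists r was 0.51, 0.41 and 0.080. As a share of the tRNA table, histidine had r = -0.37 with the germ-cell and 0.42 with the epithelial list. The part of these lists in the histidine values was tested only as a covariate. With the germ-cell share in the fit, the histidine sum had log2 fold changes of 0.015 at 0.4 ppm and 0.12 at 0.8 ppm (limma adjusted p = 0.95 and 0.776). With tRNA reads in the fit they were 0.12 and 0.082 (limma adjusted p = 0.731 and 0.872). With the library set in the fit they were 0.25 and 0.13 (limma adjusted p = 0.635 and 0.99). The mean germ-cell share was 42.6% ± 5.46 (SD) in the 7 air rats, 35.6% ± 6.50 in the 8 rats at 0.4 ppm and 41.7% ± 9.25 in the 8 at 0.8 ppm.

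**Figure D4:**
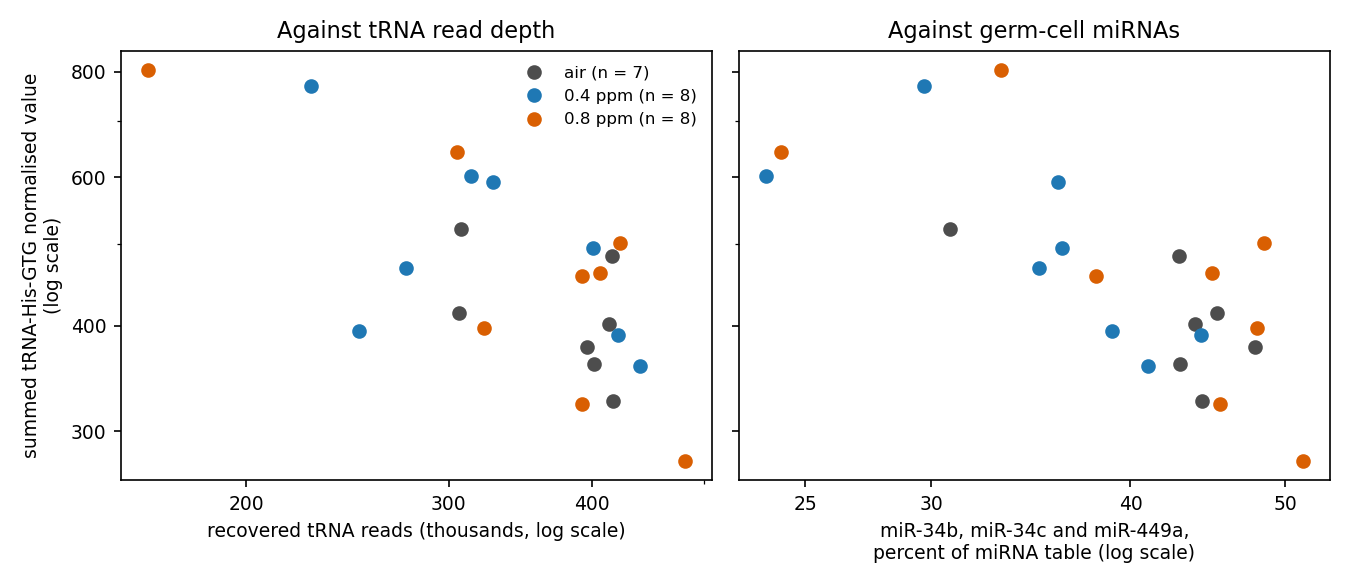
Summed histidine value of each library (log axis) against recovered tRNA reads (left, log axis) and against the share of the miRNA table held by miR-34b, miR-34c and miR-449a (right, log axis). Points are single rats coloured by group. Values fall from 803.4 in the shallowest library to 276.7 in the deepest, and the 5 libraries with the least germ-cell miRNA have values of 521.3 to 803.4.

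The features most like histidine over the 23 libraries were chosen by the Pearson correlation of log2(value + 1) with the histidine sum. Among other anticodon sums these were tRX-Ala-NNN (r = 0.80, rho = 0.80), tRNA-Val-AAC (r = 0.77, rho = 0.70) and tRX-Val-NNN (r = 0.70, rho = 0.67). With the group means removed they had 0.83, 0.77 and 0.67. Among single rows outside histidine they were tRX-Ala-NNN-91-1 (r = 0.78), tRNA-Val-AAC-1-1 (r = 0.76), tRNA-Val-AAC-1-2 (r = 0.75), tRX-Gly-NNN-450-1 (r = 0.72) and tRNA-Val-CAC-4-1 (r = 0.72). The median r over the 263 other rows was -0.030. Among the anticodons that can carry queuosine, r was -0.79 for tRNA-Tyr-GTA, -0.74 for tRNA-Asn-GTT and 0.022 for tRNA-Asp-GTC. Without the 2 libraries farthest from the histidine median they were -0.66, -0.56 and -0.55. Among the anticodons known for sperm fragments, r over the 23 libraries was 0.68 for tRNA-Val-CAC and 0.49 each for tRNA-Gly-GCC and tRNA-Glu-CTC. It was 0.030 for tRNA-Lys-CTT and -0.35 for tRNA-Leu-CAA. All these values share library, depth and scaling factor.

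Genes that make, modify or cut histidine tRNA could not be described. The list of 25 symbols included Hars1, which charges the tRNA with histidine, Thg1l, the queuosine enzymes Qtrt1 and Qtrt2, and Ang, which cuts tRNAs at the anticodon. Of these, 0 matched a name among the 617 transcripts of the Ensembl table.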

How the data were processed

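Small RNA of cauda sperm from 23 rats was read from the tRNA, miRNA and Ensembl tables. The deposited values are a read signal scaled per library by the authors. Partek, Bowtie 1.0.0 and genome build rn6 are named, per the submitters' processing notes, whereas for the assignment of reads to rows the step was not given in the sources used here. Across libraries the median ratio to the geometric mean of the tRNA rows was 1.011 in all 23 libraries within rounding, as a scaling on the rows of this table would give.

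Rows above 0 in at least 8 libraries were tested, which kept all 273. Rows, and again values summed by anticodon, were fitted as log2(value + 1) over the 3 groups in limma 3.58.1 (R 4.3.3), using its intensity trend and robust options. Adjusted p is Benjamini-Hochberg over the rows or sums of a contrast, two-sided, at 0.05. The trend came from a fit with ppm as a number. Fold changes understate the change of low rows. The fit was tested on simulated data with independent rows and planted changes larger than the histidine differences. That test does not show how the fit handles changes of the histidine size. Recovered reads gave depths and counting errors, and no count test was run on them.

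The members and lists were chosen with earlier results of these data known. Every tRNA-His-GTG row was named, with the 5 rows and 3 anticodon sums most correlated with their sum and the neighbours in level. Also named were the anticodons that can carry queuosine, 5 anticodons known for sperm fragments and the tRX-His row. Those 5 were not chosen by their level in these libraries. Alternatives were other pseudocounts, filters, scalings, library weights, moderation, an exact Wilcoxon rank-sum test, fits to the compared groups, covariates, another sum and leaving out each rat. Covariates of tRNA reads, germ-cell miRNA share and library set, and leaving out the 2 shallowest libraries, were chosen after seeing the data. Each library is labelled as its own rat, so p-values rest on the spread between rats. The piRNA table was not used here.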

Additional observations from a re-analysis of the deposited data

Results flagged for a closer look

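In 42 checks of a group for a rat far from the others, 4 values stood out, and chance flags about 1 in 20 groups. The histidine share of 0.4 ppm replicate 6 was 0.277% against 0.166% in the next library. The same rat had 103.5 in row tRNA-His-GTG-1-10, next to 53.3, and 77.96 in row tRNA-His-GTG-1-7, next to 48.3. Row tRNA-His-GTG-1-2 stood at 118.6 in 0.8 ppm replicate 5, next to 67.7. Both rats had the fewest tRNA reads of all, 227916 and 164342, and the highest epithelial miRNA shares, 3.23% and 2.95%. The part of either in these values was not tested.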

How the results depend on the processing

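Under the alternatives tried, no histidine row and no histidine sum passed the adjusted threshold, with limma or with the exact Wilcoxon rank-sum test; the adjusted p of the sum stayed at 0.407 or above. With library weights limma called 22 of 273 tRNA rows at 0.8 ppm and 9 for the trend, against 0 without, and none was a histidine row; the cause was not tested. The sum kept its sign against air in each alternative. With each rat left out its log2 fold change ran from 0.19 to 0.34 at 0.4 ppm and from 0.055 to 0.27 at 0.8 ppm. The lowest values came without 0.4 ppm replicate 6 and without 0.8 ppm replicate 5. For 0.8 against 0.4 ppm it ran from -0.22 to -0.0018 with each rat left out. That contrast turned positive with equal table totals (0.17), with the table total as covariate (0.061), with the germ-cell share as covariate (0.10), and with equal totals without the 2 shallowest libraries (0.26), and with equal totals and the library set as covariate (0.13); the cause was not tested.

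Single rows turned negative in 22 of 780 values. At 0.4 ppm with the germ-cell share as covariate these were rows 1-1 (-0.044), 1-4 (-0.13), 1-6 (-0.012), 1-8 (-0.040) and 1-9 (-0.10), and with tRNA reads as covariate row 1-4 (-0.017). At 0.8 ppm row 1-4 had -0.040 with quantile normalization, -0.045 with tRNA reads, -0.0069 with the germ-cell share and -0.065 without the 2 shallowest libraries, and -0.065 to 0.16 with each rat left out. Row 1-6 had -0.027, -0.051, -0.0074 and -0.073 in the same settings, -0.011 with the library set as covariate, and -0.073 to 0.25 with each rat left out. Taking the share over a total without Gly-GCC, Gly-CCC and Leu-CAA raised it by construction to 0.275% in air, 0.321% at 0.4 ppm and 0.344% at 0.8 ppm. The relation with depth fell to r = -0.48 without the 2 libraries farthest in depth. No paired analysis was possible because the labels give each rat its own number, and the sample sheet numbers that recur are not described as linking rats; they were used to form the 2 library sets. Rows rest on 17 to 109 recovered reads a library. This gives a counting coefficient of variation of 13.2% to 16.8% against 25.1% to 43.3% observed. The part of read depth in this spread was not tested.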
